A study of Mus musculus with 14 samples.

Results

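Histone H3 acetylated at lysine 27 (H3K27ac) was profiled in mouse small intestinal organoids, which are three-dimensional cultures of gut epithelium grown from intestinal stem cells. The organoids described here were the controls of a study on RANKL, the cytokine that induces antigen-sampling microfold (M) cells, and had been grown in ENR medium and harvested at day 6. ENR medium held 50 ng/mL mouse EGF, 10% Noggin conditioned medium and 5% R-spondin 1 conditioned medium. The H3K27ac levels below come from control libraries alone, while the regions were deposited for the whole series. The ONECUT2 sites near the end come from the authors' comparison of the arms. All libraries came from line26 wild type, Lgr5GFPDTR/+, a line derived from a female mouse in which 1 Lgr5 allele carries GFP and the diphtheria toxin receptor. The 3 replicates were 3 independent differentiation experiments with 250000 cells each, so every SD below is a spread between experiments of 1 line and not between mice. Libraries were made by ChIPmentation, a protocol that uses Tn5 transposase to put adapters onto chromatin still held by the antibody. In the deposited regions, control replicates 1 to 3 held 5434172, 9160267 and 5578062 reads.

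The 500 strongest H3K27ac clusters of these controls are described, out of 35609 clusters in all. Counts of each 2000 bp region were scaled to CPM, the count for each 1e+06 reads in regions, and averaged over the 3 libraries. Neighbouring regions separated by up to 12500 bp were joined into a cluster, and clusters were ranked by their summed CPM. The clusters were selected on the mean CPM of the same 3 libraries that give their levels below, so ranks and levels are descriptions and no test is attached to them. The 500 clusters were 1.40% of all clusters and held 2928 of 55050 regions. They held 12.7%, 12.1% and 12.7% of the reads of replicates 1 to 3 (SD 0.313, n = 3).

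H3K27ac is deposited by the acetyltransferases p300 and CBP on nucleosomes beside active promoters and enhancers, and it is bound by bromodomain proteins that aid transcription. Long runs of closely spaced acetylated elements are often called stretch enhancers or super-enhancers, and they are frequently found near genes that mark the identity of a cell type. In the small intestine, Wnt signalling through TCF7L2 maintains the stem cells at the crypt base, while CDX2, HNF4A and GATA4 support the absorptive programme of the villus. Organoids in ENR medium keep stem cells and also form the differentiated epithelial lineages, and in such a mixture fewer acetylated cells of a type and less acetylation per cell cannot be told apart.

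Several of the strongest clusters held microRNA genes, whose mature products are short enough to show in full. The miR-200 family restrains the repressors ZEB1 and ZEB2 and thereby helps to keep epithelial cells epithelial. Its 5 members lie in a group of 3 and a group of 2 on different chromosomes, and both groups lay in clusters among the strongest 14. The mature sequences are RefSeq's, the capitals mark the seed (bases 2 to 8 from the 5′ end), and the first 3 share one seed while the next 2 share another.
mmu-miR-200b-3p: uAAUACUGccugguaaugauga
mmu-miR-429-3p: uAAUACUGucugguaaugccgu
mmu-miR-200c-3p: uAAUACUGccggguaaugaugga
mmu-miR-200a-3p: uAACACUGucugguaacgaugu
mmu-miR-141-3p: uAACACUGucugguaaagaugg
mmu-miR-21a-5p: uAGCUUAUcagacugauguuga
mmu-miR-192-5p: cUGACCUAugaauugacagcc
mmu-miR-194-5p: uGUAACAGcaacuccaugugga
mmu-miR-203-3p: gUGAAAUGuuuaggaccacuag
Of the 1679 mature miRNAs in the RefSeq table, 3 have the seed AAUACUG and 2 have AACACUG. All 5 of these lay in the 2 clusters just described.

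Promoters of 5 genes that recur below are shown next, because each lies in the strongest region of its cluster. Each run is the 150 bases before a gene start on the gene's own strand, taken from RefSeq sequence of the mouse assembly GRCm38.p6, which is the mm10 build. Capitals mark matches to the motifs searched, on either strand. The TATA box was searched as TATAAA and the site of CDX homeobox factors as TTTATNG. For the nuclear receptor HNF4 the letters were CAAAGTCCA, and for TCF and LEF, the partners of β-catenin, they were CTTTGAT. ETS factors were given CCGGAAG and the SP and KLF zinc fingers GGGCGGG. AP-1 was searched as TGANTCA, the cyclic AMP response element (CRE) as TGACGTCA and GATA factors as AGATAA, and no motif contains another.
Tcf7l2, chr19:55741660-55741809, plus strand: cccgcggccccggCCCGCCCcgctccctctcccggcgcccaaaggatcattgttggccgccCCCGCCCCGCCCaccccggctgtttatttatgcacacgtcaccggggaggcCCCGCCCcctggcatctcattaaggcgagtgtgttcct
Cldn7, chr11:69965271-69965420, plus strand: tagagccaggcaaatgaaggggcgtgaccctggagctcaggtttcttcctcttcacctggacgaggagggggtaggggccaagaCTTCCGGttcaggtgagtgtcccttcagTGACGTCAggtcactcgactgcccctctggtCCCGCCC
Epcam, chr17:87635829-87635978, plus strand: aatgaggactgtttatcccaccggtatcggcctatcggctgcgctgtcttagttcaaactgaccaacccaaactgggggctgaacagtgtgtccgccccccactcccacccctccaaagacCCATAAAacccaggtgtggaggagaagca
Ezr, chr17:6782781-6782930, minus strand: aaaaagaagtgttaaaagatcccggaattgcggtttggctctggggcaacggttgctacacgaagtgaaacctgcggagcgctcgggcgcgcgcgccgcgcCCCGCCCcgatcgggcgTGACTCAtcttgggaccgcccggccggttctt
Jun, chr4:95052223-95052372, minus strand: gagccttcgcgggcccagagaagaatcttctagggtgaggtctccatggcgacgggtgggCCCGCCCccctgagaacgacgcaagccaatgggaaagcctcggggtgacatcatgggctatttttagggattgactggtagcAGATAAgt
The Tcf7l2 window held 4 SP/KLF matches and no other motif of the set. The Cldn7 window held matches to ETS, CRE and SP/KLF, the Epcam window 1 to CDX, the Ezr window matches to AP-1 and SP/KLF, and the Jun window matches to SP/KLF and GATA. A match is only a run of letters and does not show that a factor is bound.

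The ranked levels fell steeply at first and then slowly. The strongest cluster had a mean of 746 CPM, the median of the 500 was 227 CPM and the median over all clusters was 8.90 CPM, a ratio of 25.5 between the latter medians. The strongest 1% of clusters (356) held 9.70% ± 0.255 of the reads in regions and the strongest 10% (3561) held 46.5% ± 1.08 (SD, n = 3). The tangent point often used to call super-enhancers, where the curve has the slope of its own diagonal, lay at 98.9 CPM and left 2266 clusters above it, so the 500 lay well inside the steep end. The last clusters inside were the ones nearest to Atp9a (184.1 CPM), 5031439G07Rik (184.0 CPM) and Pdxdc1 (183.8 CPM). The first ones outside were nearest to Ttc7b (183.7 CPM), Rpl27 (183.4 CPM) and Tmem167b (183.2 CPM), so rank 500 does not fall at a gap.

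**Figure D1:**
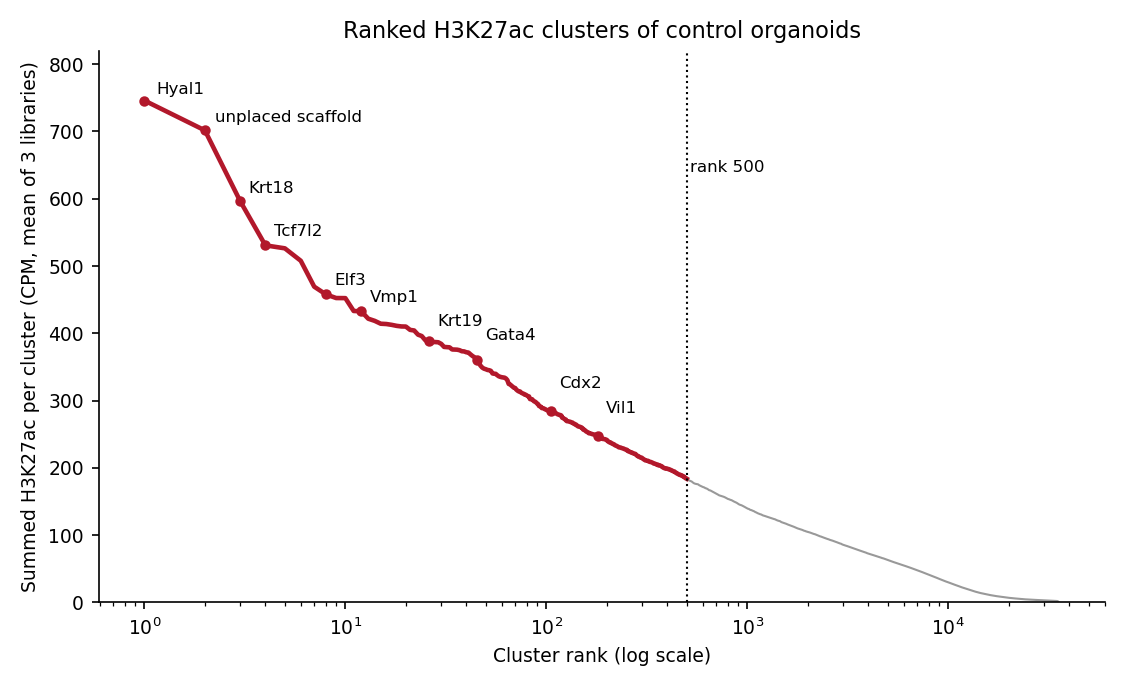
Summed H3K27ac of each cluster (CPM, mean of 3 control libraries) against its rank on a log axis, with the 500 strongest in red, the others in grey and 10 clusters labelled by their nearest gene. The curve falls from 746 CPM at rank 1 to 183.8 CPM at rank 500 and runs on without a break.

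The cluster of rank 1 lay over a gene-dense stretch of chromosome 9 (107532980 to 107645772, mm10, coordinates as deposited) and its strongest region was 1.17 kb from Hyal1, a lysosomal hyaluronidase. It read 751, 739 and 748 CPM in replicates 1 to 3. Its 16 regions crossed 14 protein-coding genes, among them Rassf1, a Ras association domain scaffold, Gnai2, an inhibitory G protein subunit, and Nprl2, a regulator of mTORC1. No single region dominated it, since the strongest read only 87.0 CPM and the cluster's level was 23.3 CPM per kb of region.

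The cluster of rank 2 lay on an unplaced scaffold of the assembly, where no gene was assigned. It read 715, 650.1 and 740 CPM, and 1 of its 10 regions read 298.3 CPM, the highest of all 55050 regions. That region read 331, 235 and 329 CPM, with replicate 2 lowest. Input libraries were not analysed here.

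Rank 3 spanned the paired keratin genes Krt8 and Krt18, which encode the intermediate filament partners of simple epithelium (chromosome 15, 101995074 to 102074704). The cluster read 617, 558 and 614 CPM (596 ± 33.6, SD, n = 3), lowest in replicate 2. Its strongest region (167 CPM) lay 11.2 kb outside Krt18, and the regions over Krt8 and Krt18 themselves summed to 158.6 and 104.6 CPM. Krt19, another keratin of simple epithelium, was nearest to the cluster of rank 26, which read 384, 377 and 402 CPM.

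Rank 4 lay over Tcf7l2, the transcription factor through which β-catenin acts in the crypt (chromosome 19, 55688747 to 55798950). It read 541, 504 and 547 CPM (531 ± 23.2), again lowest in replicate 2. The region at the gene start, which holds the promoter printed above, read 117, 105 and 119 CPM, and it held only 21.4% of the cluster. A further cluster inside Tcf7l2, of rank 166, had no region at a gene end and read 245, 246 and 262 CPM. Tcf7l2 was 1 of 6 genes that were nearest to more than 1 of the 500 clusters, and Ezr, Fos, Shroom3 and Tmprss2 were others.

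The next ranks mixed housekeeping and epithelial loci. Rank 5 (526 ± 20.4 CPM) crossed 7 genes, among them Eef1g, a subunit of translation elongation factor 1, and Ahnak. Rank 8 (458 ± 21.8 CPM) held Elf3, an ETS factor of epithelial differentiation, and rank 9 (452 ± 16.2 CPM) held Cldn7, a claudin of the lateral membrane. The Cldn7 region that includes the promoter printed above read 163, 139 and 154 CPM, which was the strongest region of any gene on the junction and keratin list used below. Ranks 7, 10 and 11 were nearest to Tatdn2, to the splicing factor gene Hnrnpf and to Surf4, an export receptor of the endoplasmic reticulum.

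Ranks 12 to 20 lay between 433 and 410.0 CPM and followed one another closely. Their nearest genes were Vmp1, an autophagy protein of the endoplasmic reticulum, Eps8l3, Ptpn6, a tyrosine phosphatase, Ppp1r37, the linker histone gene H1f2, Slc3a2, the heavy chain of several amino acid transporters, Anapc2, a subunit of the anaphase promoting complex, Ap5b1 and Deaf1. The H1f2 cluster crossed 13 genes of the major histone gene array on chromosome 13 and its surroundings, and a neighbour of rank 23 crossed 15, the most of any of the 500. Histone genes are near-identical copies, and how reads that fit several copies were counted is not stated, so these levels are uncertain. Slc3a2 had the highest level per kb of region among the strongest 20, at 51.6 CPM per kb.

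**Figure D2:**
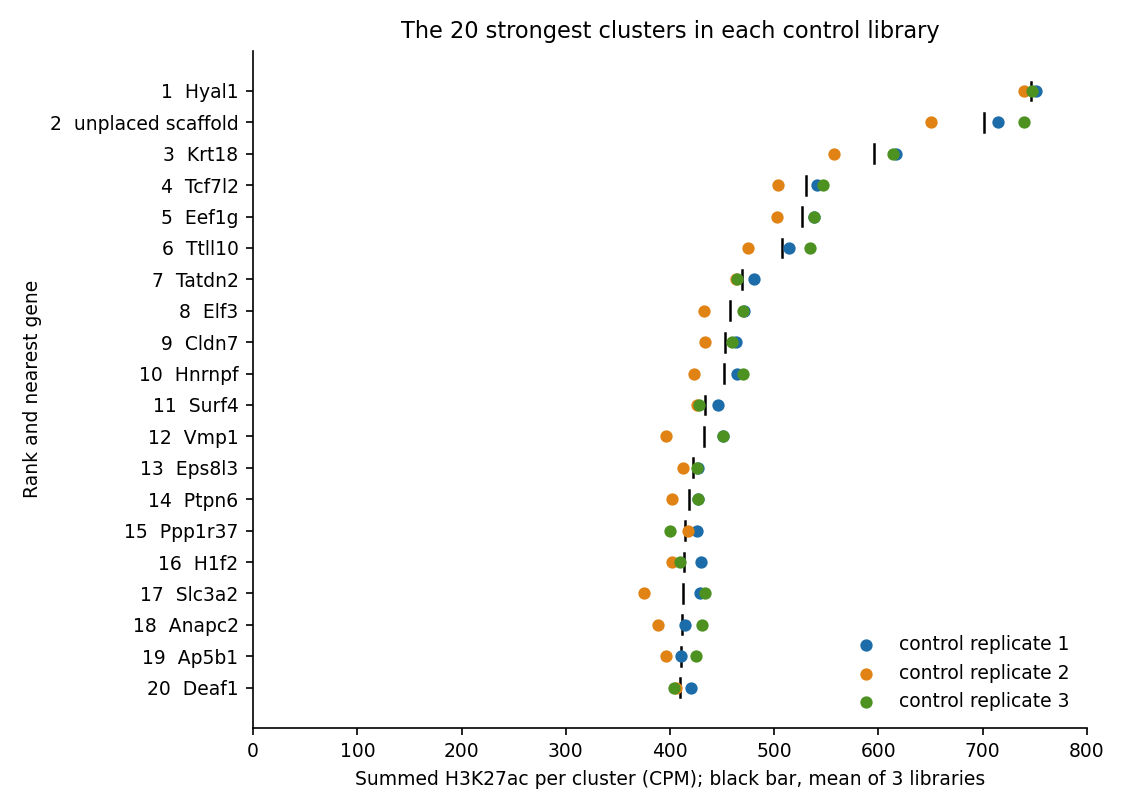
Summed H3K27ac (CPM) of the 20 strongest clusters in control replicates 1 to 3, with 1 point per library and the mean as a bar; clusters are named by their nearest gene. In most of them replicate 2 lies lowest, and the libraries of a cluster lie much closer together than the first cluster lies to the last.

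The miR-200 groups gave the clusters of rank 6 and rank 14. Mir200a, Mir200b and Mir429 lay in the first, on chromosome 4 (156053305 to 156110803), which read 515, 475 and 534 CPM. The region that overlaps Mir200a and Mir429 read 61.3, 58.8 and 65.8 CPM, and Mir200b began 0.376 kb beyond it. The strongest region of this cluster (150.3, 126 and 148 CPM) lay away from gene ends, 9.06 kb from the span of Ttll10.

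Mir200c and Mir141 lay in the cluster of rank 14 on chromosome 6 (124677951 to 124760472), which read 427, 402 and 427 CPM. Both overlapped its strongest region (123, 102 and 119 CPM), which was also 1.82 kb from Ptpn6. The nearest protein-coding gene thus names neither of these clusters by the microRNAs in it.

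Mir21a, a microRNA abundant in many epithelia, lay in the cluster of rank 12, 2.12 kb from a region that read 133, 111 and 133 CPM. Mir194-2 and Mir192, whose products are abundant in gut and liver epithelium, lay in the cluster of rank 170, inside a region that read 193, 160.4 and 179 CPM. That region alone held most of its cluster, which read 269, 230.2 and 251 CPM over 2 regions. Mir203, known from stratified epithelium, lay in the cluster of rank 365 in a region of 95.7, 90.3 and 95.0 CPM.

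In all, 60 of 1228 miRNA genes, or 4.89%, lay inside the span of 1 of the 500 clusters, in 46 clusters, and 21 of them overlapped a region. Of the protein-coding genes in the table, 5.92% were crossed by the clusters. Protein-coding genes span far more sequence and are more easily crossed, so these shares do not show whether miRNA genes were favoured. The microRNAs named here were chosen after their values had been seen.

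**Figure D3:**
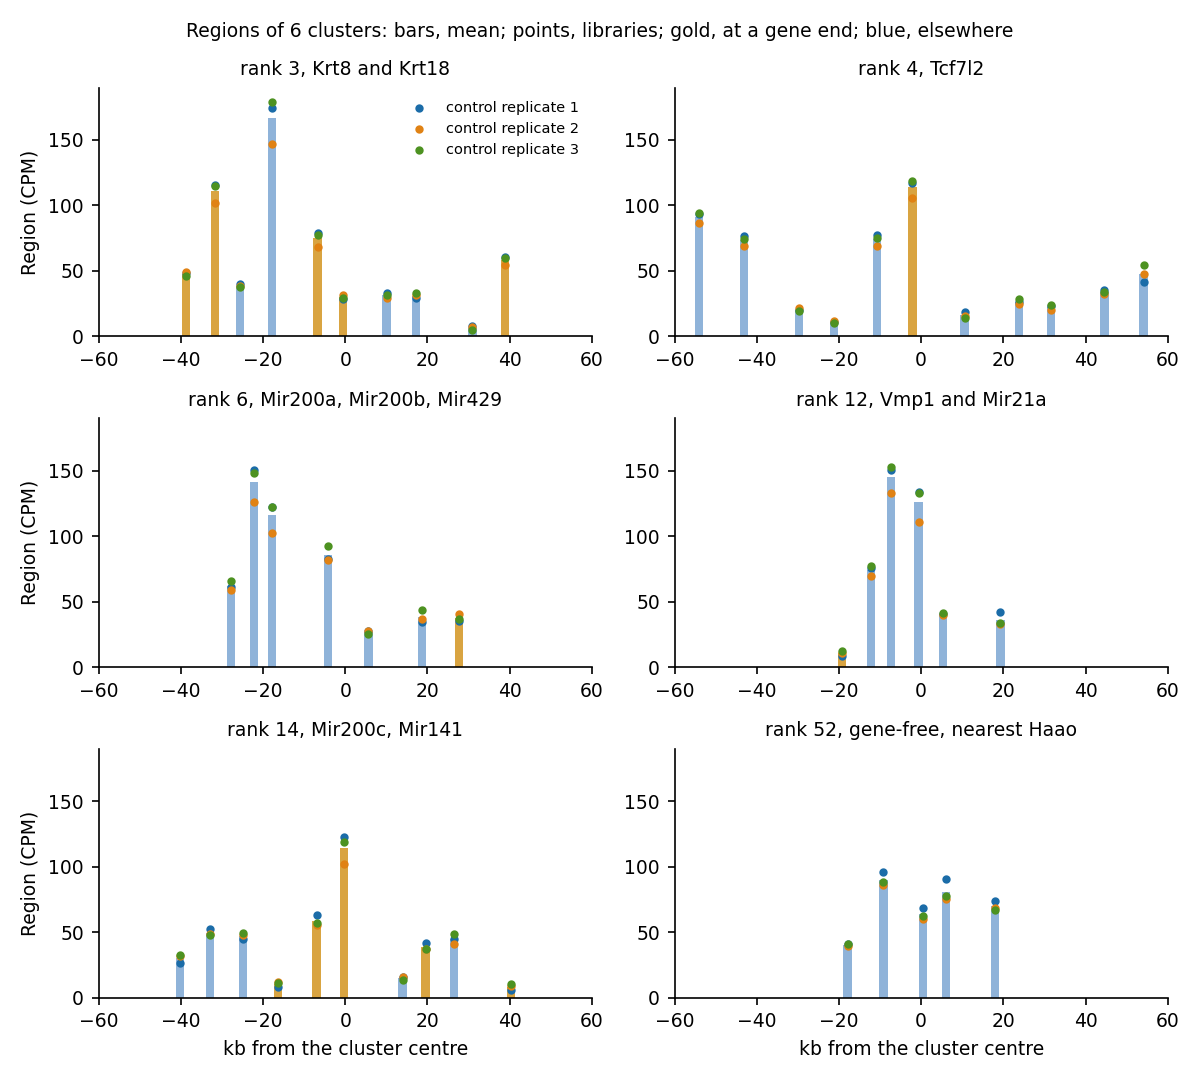
Mean H3K27ac of each region (bars, CPM) against its distance from the cluster's centre (kb) in 6 of the 500 clusters, with 1 point per control library; gold bars lie within 2 kb of an end of a protein-coding gene and blue bars elsewhere. The strongest region is away from gene ends at Krt8 and Krt18, the Mir200a group, Vmp1 and Haao, and at a gene end at Tcf7l2 and the Mir200c group.

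Most of the 500 joined many regions of moderate strength. They had a median of 6 regions (2 to 16) and a median span of 40.9 kb (9.43 to 118.1 kb), against a median of 1 region in the other clusters, and these counts feed the rank itself. In all, 351 had 5 or more regions, and of the 46 clusters with at least 10 regions 39 were among the 500. The strongest region held a median of 35.2% of its cluster (11.7 to 78.8%). Ranked by their strongest region alone, only 156 of the 500 would be among the strongest 500. Per kb of region, the 500 had a median level of 22.0 CPM, close to the 20.7 CPM of the next 500 clusters, and the other clusters as a whole had 3.36 CPM.

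The widest clusters were nearest to Wnt5b, a noncanonical Wnt ligand (rank 80, 118.1 kb), Hyal1 (112.8 kb), Sema4c, a semaphorin (rank 62, 111.0 kb), Eps8l3 (110.9 kb) and Tcf7l2 (110.2 kb). The densest, by CPM per kb of span among clusters of at least 3 regions, was nearest to Txnip, the thioredoxin interacting protein that responds to glucose (rank 35). It packed 394, 334 and 400 CPM into 21.1 kb, and its 62.6 CPM per kb of region was the highest of the 500. The next densest were nearest to Arfgap3, Ppara, Letm2 and Rassf7, at 17.0 to 15.0 CPM per kb of span.

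Gene ends carried much of the signal, but not all of it. Regions within 2 kb of either end of a protein-coding gene were 24.5% of all regions and held 48.7% of all reads in regions. In the 500 clusters, 1153 regions (39.4%) lay at gene ends, with a median of 51.9 CPM against 26.6 CPM for their other regions. Outside the 500 the medians were 30.1 CPM at gene ends and 5.96 CPM elsewhere, so both kinds of region were stronger inside the clusters, as the ranking favours. The share of a cluster at gene ends ran from 0 to 100% with a median of 49.2%. It was under 10% in 70 clusters and over 90% in 78.

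**Figure D4:**
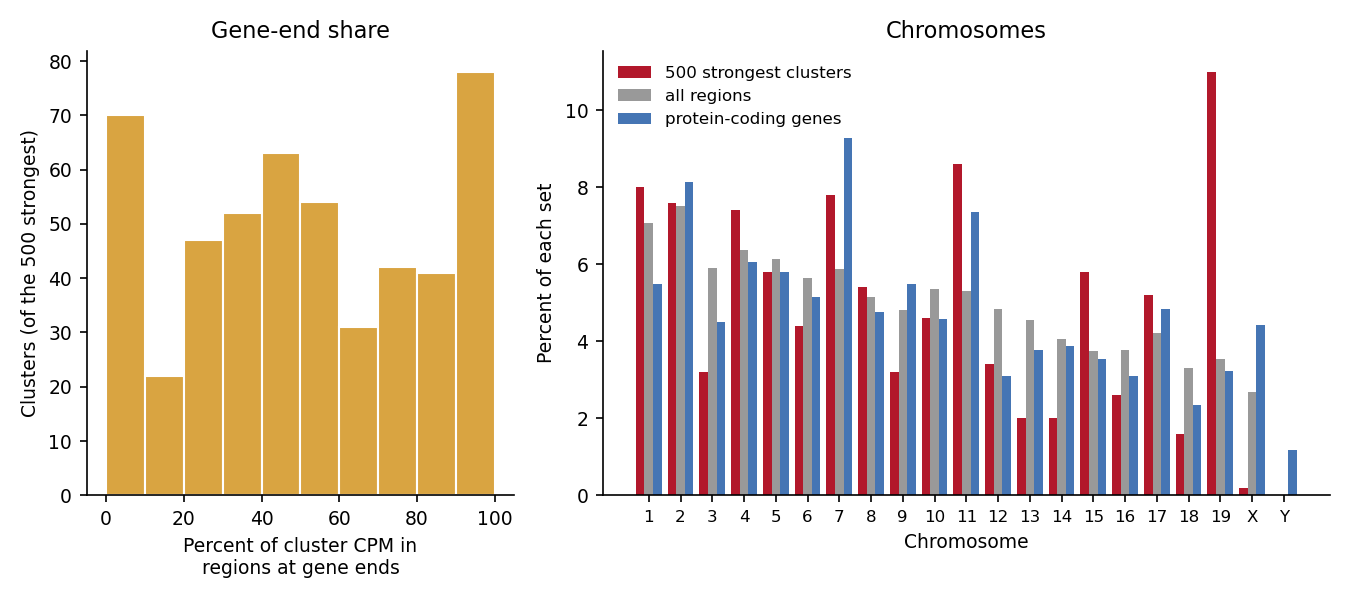
Left, number of the 500 clusters by the percent of their CPM that lies in regions at gene ends; right, percent of the 500 clusters, of all regions and of protein-coding genes on each chromosome. The left panel is highest at both extremes (70 and 78 clusters), and the right panel shows chromosome 19 with 11% of the clusters and 3.53% of the regions.

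Some clusters lay far from any protein-coding gene. Of the 500, 23 crossed no such gene and 10 had their strongest region over 50 kb from one. The cluster nearest to Haao was of rank 52 although it lay 150.3 kb away on chromosome 17 (83989513 to 84027369). It read 370, 329 and 336 CPM in its 5 regions, highest in replicate 1, and crossed the long noncoding RNA genes 8430430B14Rik and Gm35551.

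The farthest was the cluster of rank 320, 206.2 kb from Klf14, which read 209.8, 213 and 209 CPM and crossed the noncoding gene Lncpint. Others were 136.4 kb from Zfp703 (rank 228), 107.1 kb from Ptpn1 (rank 130) and 96.0 kb from Ywhaz (rank 370). A cluster of rank 59 lay 45.3 kb from Ezr and read 344, 314 and 348 CPM, more than the cluster of rank 187 that holds the Ezr promoter (265, 235 and 235 CPM).

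The 500 clusters had 493 distinct nearest genes, which is 3.54% of the 13946 genes nearest to any cluster. They crossed 1295 of 21887 protein-coding genes, or 5.92%. The midpoint of the strongest region was inside the nearest gene in 273 clusters and outside but within 2 kb in 147. A single nearest gene hides neighbours, because 320 clusters crossed 2 or more genes and 71 crossed 5 or more. Which gene a cluster acts on is not known from distance alone. Below, a list member counts as reached if it was nearest to, or crossed by, one of the 500. The lists were chosen with earlier results of these data known and carry no test. Set against these shares of all genes, a list with 0 or 1 member reached is at or near the background.

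Genes of epithelial adhesion and of the keratin skeleton were reached most often, 10 of 21. Besides the Krt8, Krt18, Krt19 and Cldn7 loci, these were Cldn3 and Cldn4, claudins of the tight junction in one cluster of rank 32, Epcam, Ctnnd1, Dsp and Ocln. Cldn4 and Cldn3 shared 378, 358 and 402 CPM. The cluster of Epcam, the pan-epithelial adhesion molecule, was of rank 71 and read 326, 307 and 316 CPM. The region over the Epcam promoter printed above gave 107, 96.1 and 114 CPM of that.

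Ctnnd1, which encodes the cadherin partner p120 catenin, had rank 207 (244, 221 and 249 CPM). Dsp, the desmosomal plaque protein desmoplakin, had rank 216 (249.9, 214 and 242 CPM), and Ocln, occludin, had rank 392 (202, 191 and 205 CPM). The strongest regions of this list's genes had a median of 84.1 CPM, against 19.2 CPM over all protein-coding genes, both for regions of one length. Cdh1, the epithelial cadherin, was outside at rank 616.

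Of the intestinal transcription factors, 5 of 28 were reached. Behind Tcf7l2 and Elf3 came Gata4, the proximal small intestinal GATA factor (rank 45), which read 369, 363 and 349 CPM over 10 regions. Cdx2, the homeobox factor that specifies intestine, had rank 105 (298, 268 and 287 CPM), with 102.5 CPM at its strongest region. Ehf, an epithelial ETS factor, had rank 140 (269, 262 and 262 CPM). Cdx1 (rank 521) and Hnf4a (rank 627) lay beyond the limit, with 67.0 and 54.9 CPM at their strongest regions. The 7 regions over Hnf4a summed to 253, 258 and 254 CPM but lie in more than 1 cluster. All 28 had at least 1 region, and the list's median strongest region was 60.6 CPM.

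Of the stem cell and Wnt target genes, 3 of 24 were reached, too few to tell the list from the 5.92% of all genes crossed. They were Tcf7l2 itself, Lrig1, an inhibitor of ErbB receptors that marks stem cells (rank 91; 288, 294 and 302 CPM), and Ephb2, which positions crypt cells (rank 115; 284, 269 and 286 CPM). The latter clusters had 21.0% and 18.9% of their signal at gene ends. Rnf43 and Axin2, negative regulators and targets of Wnt, had ranks 547 and 741. The 6 regions over Rnf43 summed to 303, 280 and 297 CPM but lie in more than 1 cluster. Lgr5, the R-spondin receptor of crypt base stem cells, had rank 2287, although 7 regions over it summed to 233, 216 and 226 CPM. Those regions lie in more than 1 cluster, and 1 Lgr5 allele of this line is the reporter. Olfm4 and Ascl2 had a single region each, at 22.2 and 33.5 CPM. The list's median strongest region was 46.3 CPM, above the 19.2 CPM of all genes.

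Of 28 enterocyte genes, 3 were reached, also too few to tell the list from the 5.92% of all genes crossed. These were Ezr, the microvillar linker ezrin, Vil1, the brush border protein villin (rank 180; 252, 242 and 247 CPM), and Cdhr2, a protocadherin that links microvilli and was crossed by a cluster of rank 101. Alpi and Sis, which encode brush border digestive enzymes, had 19.5 and 13.3 CPM in their only region, and Fabp1 had none. No Paneth cell gene (0 of 14), enteroendocrine gene (0 of 18) or tuft cell gene (0 of 14) was reached, which at these list sizes is near the background.

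The goblet list had 1 of 15 (Creb3l4) and the M cell list 1 of 13 (Relb). Both were crossed only, by clusters nearest to Rab13 and Ppp1r37. The median strongest region was 13.6 CPM for goblet, 4.68 CPM for Paneth, 2.49 CPM for enteroendocrine and 6.21 CPM for tuft cell genes, all under the 19.2 CPM of all genes. For M cell genes it was 20.8 CPM and for enterocyte genes 36.5 CPM.

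Signalling genes of the EGF receptor pathway were reached in 6 of 19 cases. Lrig1 was joined by Errfi1, a feedback inhibitor of EGFR (rank 151; 262, 247 and 269 CPM), Dusp5, a nuclear ERK phosphatase (rank 334; 208, 204 and 212 CPM), and Erbb3, a receptor of the family (rank 398; 205, 187 and 204 CPM). The Errfi1 cluster crossed no gene and lay 28.8 kb away. Erbb2, another receptor, and Hbegf, a ligand, were crossed by the clusters of ranks 29 and 112. Egfr itself was outside at rank 3147, with 12.4 CPM per kb of region over its 10 regions.

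AP-1 and immediate early genes had 6 of 14 reached. The small Maf factor Maff (rank 37) read 372, 367 and 386 CPM, and Junb (rank 57) read 347, 319 and 348 CPM. Jun had rank 260 (227, 218 and 226 CPM), and the region that holds its promoter, printed above, read 182, 158.5 and 178 CPM, the highest of any list gene. Fosl2 had rank 430, and Fosb was crossed by the Vasp cluster of rank 40.

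Fos was nearest to 2 clusters. The one over it had rank 453 (196, 181 and 195 CPM), and one 43.7 kb away, which crossed no gene, had rank 368 (207, 197 and 205 CPM). The list's median strongest region was 105.1 CPM, the highest of the 22 lists.

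Beside the 5.92% of all genes crossed, too few nuclear receptors were reached to tell the list apart, 3 of 20. They were Nr1d1, the clock repressor REV-ERBα (rank 31; 374, 371 and 395 CPM), Ppara, the fatty acid sensor (rank 87; 317, 276 and 304 CPM), and Esrra, an oestrogen-related receptor of mitochondrial genes (rank 268; 223, 209 and 235 CPM). The Ppara cluster lay 65.2 kb from the gene and crossed none. The BMP and TGF-β list had 1 of 17, the receptor gene Tgfbr2 (rank 203; 257, 225 and 237 CPM), and the YAP target and fetal list 1 of 15, Amotl2 (rank 425).

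No Notch pathway gene was reached (0 of 15), with the ligand gene Dll1 at rank 640 and the target Hes1 at rank 997. Of the cell cycle genes 1 of 18 was reached, Pcna, by crossing. Housekeeping genes had 3 of 14, among them Eef2 (rank 319) and Ywhaz (96.0 kb away). This is again a small count to set beside the 5.92% of all genes crossed. The housekeeping list's median strongest region was 75.2 CPM, not far below the junction list.

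**Figure D5:**
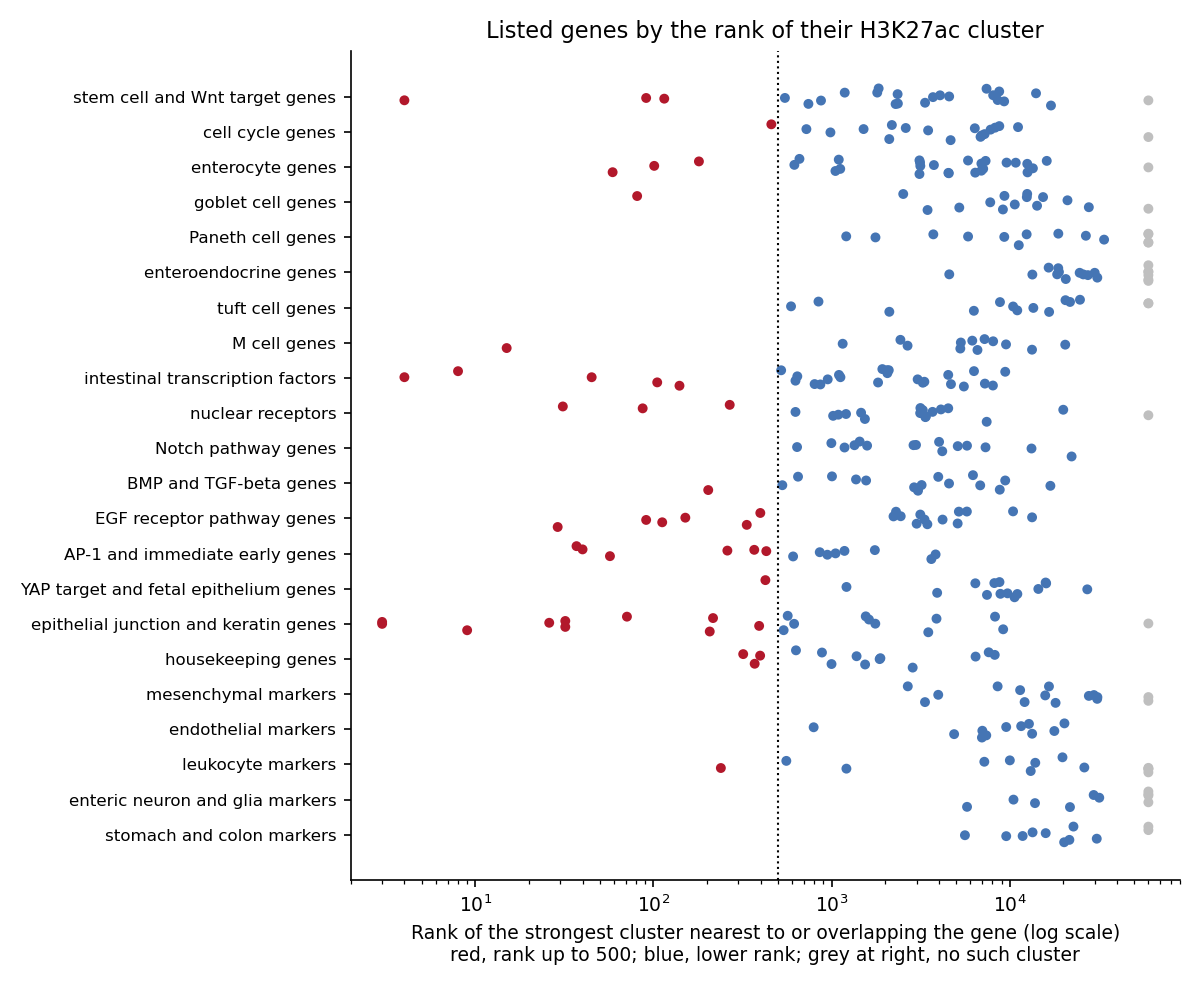
Rank (log axis) of the strongest cluster nearest to or overlapping each listed gene, with 1 row per list and 1 point per gene; red points are among the 500, blue points beyond and grey points at the right have no such cluster. The junction and keratin list has 10 of 21 in red, the Paneth, enteroendocrine, tuft, Notch, mesenchymal, endothelial, neuron and stomach or colon lists have 0.

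The labelled tissue was checked against its defining markers. Epcam, Vil1, Cdx2, Krt8 and Cdh1 had strongest regions of 105.8, 82.4, 102.5, 110.6 and 71.6 CPM. Mesenchymal markers had a median strongest region of 3.94 CPM and a highest of 11.8 CPM (Pdgfra), and their summed level was 73.1, 84.7 and 71.5 CPM over 15 genes. Enteric neuron and glia markers had no region in 6 of 10 and at most 10.4 CPM. Endothelial markers had a median of 4.92 CPM, with Vwf apart at 79.8 CPM, and leukocyte markers a median of 5.30 CPM, with Cd14 at 50.2 CPM. The 1 leukocyte marker crossed by one of the 500, Cd52, had 5.30 CPM in its own region. Of the stomach and colon markers 6 of 11 had no region, and the highest strongest region on the list was 50.9 CPM, above the 19.2 CPM of all genes.

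The 3 libraries gave nearly the same clusters. Taken singly, 459 clusters were among the 500 strongest in every library and 544 in at least 1. The coefficient of variation over the libraries had a median of 3.50% in the 500 (0.0916 to 10.9%) and 13.6% in the others, where counts are lower. The SD implied by counting error alone had a median of 2.63% of the mean in the 500, and 353 clusters lay above their own value. A coefficient from 3 libraries scatters around that implied value, and the number expected above it from counting alone was not computed. A cluster rested on a median of 1244.5, 2017 and 1284.5 reads in replicates 1 to 3.

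The spread had a direction. Replicate 2, the deepest library, was lowest in 345 of the 500 clusters and highest in 55, while replicate 1 was highest in 241 and replicate 3 in 204. The part of depth in this was not tested. The steadiest cluster was nearest to Vasp, an actin regulator (371.9, 371.5 and 372.2 CPM), followed by Mat2a, Atp1b1, A130010J15Rik and Trabd, all with a coefficient of variation up to 0.330%. The most variable was nearest to Mxi1, a MYC antagonist (199, 168 and 208 CPM), followed by Chmp4b, Atl3, Txnip and Cep95, all lowest in replicate 2.

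Clusters were unevenly spread over chromosomes. Chromosome 19 held 55 of the 500 (11%), with 3.53% of the regions and 3.22% of protein-coding genes, and among them were the clusters of Tcf7l2, Eef1g and Slc3a2. Chromosome 11 held 43 (8.6%), with 5.30% of regions and 7.35% of genes. The X chromosome held 1, nearest to Ccdc120 (rank 280), out of 1480 regions. The median region read 14.8 CPM on chromosome 11 and 4.93 CPM on X, against 8.16 CPM over all regions. Of the 500, 60 had the next of them within 100 kb on the same chromosome.

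Promoter letters were compared with those of other genes, as a description. In windows of 300 bases (250 before to 50 after the start), 966 starts lay in a region of the 500 clusters, 9786 in another region and 10511 in none. The median GC content was 62% in the first set, 61.7% in the second and 50% in the third. An SP/KLF match was in 54.9%, 49.6% and 17.3% of windows, and an ETS match in 19.7%, 19.1% and 3.78%, while over all 21263 starts the shares were 33.9% and 11.6%. A TATA match was in 6.63%, 6.80% and 18.6%.

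CDX matches were in 6.63% and 6.68% of the windows in regions and in 9.58% of all windows. GATA matches were in 3.52%, 5.88% and 13.7%, and AP-1 matches in 5.38%, 4.68% and 9.29%. TCF/LEF matches were in 1.97%, 2.46% and 4.03%, HNF4 matches in 0.518%, 0.490% and 0.409%, and CRE matches in 3.31%, 3.43% and 1.02%. By these letters the starts inside the 500 clusters resembled other acetylated starts much more than starts without a region. The part of base composition, which differs in the same direction, was not tested. Of the 1295 genes crossed, 1049 (81.0%) had an entry in the promoter table.

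ONECUT2, a homeodomain factor of endoderm, was also profiled, and its sites are a readout that the ranking did not use. The authors' deposited table lists 7268 sites from a comparison of the control and RANKL arms. It cannot be taken as a list of every site bound in control, and how many of its sites differ between arms was not examined. Of the sites in the authors' deposited table, 2948 overlapped an H3K27ac region by at least 1 bp and 193 overlapped a region of the 500 clusters. Such a site was in 154 of the 500 clusters (30.8%) and in 150 of the next 500, a nearly equal count. Of all clusters outside the 500, which have fewer regions, 7.47% had one. Per Mb of region there were 33.0 sites of the authors' deposited table in the 500, 41.3 in the next 500 clusters and 26.4 in all clusters outside the 500, so the 500 were not the richest class.

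In the authors' deposited table the median control level (read as log2 mean of normalised reads) was 3.59 at sites in regions of the 500, 3.12 in other regions and 2.33 outside regions. The Krt8 and Krt18 cluster held the most, with 4 sites of 2.57 to 5.08 in the authors' deposited table. The clusters of Dnmbp, a Cdc42 exchange factor (rank 42), Gata4, Smndc1, a splicing factor (rank 46), and Atp1b1, the sodium pump β subunit (rank 114), held 3 each.

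The make-up of the 500 depends on how clusters are built. With regions within 2.5 kb of a gene start left out, 227 of the 500 still overlapped one of the strongest 500, and with a joining gap of 5 kb 217 did. Leaving out any single library kept at least 492.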

How the data were processed

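The deposited H3K27ac table holds raw read counts per 2000 bp region for 3 control libraries, which were used, and 3 RANKL libraries, which were not compared here. For the aligner, the duplicate handling and the authors' choice of regions, nothing is given in the sources used here. Genome build was mm10 and DiffBind was used, per the submitters' processing notes. Starts are printed as deposited and may count from 0. Per the file headers, the authors' ONECUT2 table gives log2 mean normalised reads and log2 folds. It also holds p-values and adjusted p-values, per the file headers, which were not used. CPM is the count over the column sum times 1e+06. Clusters (gap up to 12500 bp) were built with Python 3.11.15, pandas 2.3.3 and numpy 2.4.6, after a check on simulated clusters. Library sizes by TMM (edgeR 4.0.16) and DESeq2 1.42.0 size factors served as alternatives. Library pairs differed beyond sampling noise (chi-square per degree of freedom 1.80 to 2.06), so no library was a second deposit of the same reads. This does not show whether they share a source.

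The nearest gene is the protein-coding span of the RefSeq GRCm38.p6 table nearest to the midpoint of a cluster's strongest region. Gene starts had been planned, but that table has no strand and starts were at hand for 79.9% of coding genes; exons and introns were not resolved. Genes are named as the nearest of the 20 strongest clusters, the best ranked members of each list, the widest, densest, steadiest, most variable and farthest 5, those with most ONECUT2 sites, and those beside rank 500; further list members and microRNAs were added after their values were seen. Members and lists were chosen with earlier results of these data known. Each SD is over 3 libraries of 1 line. Input libraries were not analysed here. A few genes are not reported here.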

Additional observations from a re-analysis of the deposited data

How the results depend on the processing

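Across 15 other settings, those of scaling and averaging left the description nearly as it was. TMM and DESeq2 sizes kept all 500 clusters, the median of the 3 libraries kept 494, and a minimum of 10 reads in each library kept all 500 (33147 clusters in all). Leaving out unplaced scaffolds, chosen after seeing the data, kept 499. Without 1 replicate, 492 to 494 clusters were kept, their share of reads was 12.4% to 12.7%, nearest genes numbered 493 each time and 33 to 34 list members were nearest to a cluster, with 35609 clusters in each case.

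Settings that change what a cluster is moved the results. With a gap of 5 kb the 500 strongest held 7.17% of reads and 217 of the main 500 were kept. With a gap of 25 kb there were 23619 clusters, the share was 21.5% and 310 were kept. Without regions within 2.5 kb of a start the share was 7.74% and 227 were kept, and ranked by CPM per kb of span the share was 9.39% and 204 were kept. Taking every gene crossed in place of the nearest gave 1295 genes. The gene span nearest to the cluster midpoint gave 494 genes (310 shared with the main 493), and the nearest start of the promoter table, an alternative chosen after seeing the data, gave 476 (358 shared). List members nearest to a cluster numbered 28 to 40 of 360 over all settings.

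No paired analysis was possible because a single group was described and no result came from a test. Depth gave a median of at least 1244.5 reads per cluster and library. Every SD is over 3 experiments of 1 line, so variation between mice is not covered.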

Other observations

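With the 12849 regions within 2.5 kb of a gene start left out, the strongest 500 clusters show a different side of the same libraries. After the unplaced scaffold, the strongest were nearest to Vmp1 (451, 396 and 451 CPM), Ttll10 beside the Mir200a group (418, 376 and 432 CPM), Lipc, the hepatic lipase gene (400, 372 and 397 CPM), Tbc1d1, a Rab GTPase activating protein (368, 369 and 390 CPM), Haao (370, 329 and 336 CPM), Phlda1, Ezr, Gpr37l1 and Heg1. The cluster nearest to Ppara stood at rank 12. Of the intestinal transcription factors, Gata4 (rank 17), Hnf4a (rank 245) and Ehf (rank 260) had the strongest region of such a cluster inside the gene, and Cdx2 (rank 182) had it 7.61 kb away. Tcf7l2 was nearest to 3 of these clusters, 52.05 kb away at rank 19 and inside the gene at ranks 28 and 212. Others were the nearest coding gene only across long distances, 74.1 kb for Foxa2 (rank 278), 114.6 kb for Bcl6 (rank 497), 115.5 kb for Gata6 (rank 201) and 266 kb for Klf5 (rank 286). Elf3 left the nearest genes, but the rest of its cluster stayed at rank 9 (342, 311 and 340 CPM). That rest is the cluster named above by Gpr37l1, which lay 31.6 kb away. Cldn7, Dsp, Ocln, Jun and Junb from other lists also left the nearest genes, which does not show that their clusters were lost. Of the remaining lists, Tead1 (rank 320) had the region inside the gene, while Bmp2 (rank 93) lay 53.3 kb and Myc (rank 309) 452 kb from theirs. In all, 40 of 360 distinct list genes were nearest to one of these clusters, against 33 in the full ranking. In the full ranking the share over all genes nearest to any cluster was 3.54%. That share was not computed without the gene starts, so the 2 counts do not show that list genes were favoured in either ranking. These ranks are descriptions of the libraries that chose them.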
